A study of Mus musculus with 4 samples.

Results

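Among 15752 droplet barcodes kept from 4 mouse libraries, 79 were non-cycling CD8 T cells with many transcripts of the granzymes D, E and G. Each transcript molecule was counted through a unique molecular identifier (UMI). A barcode was kept with at least 1000 UMIs, at least 200 genes and at most 10% of UMIs from mitochondrial genes. A member had at least 1 UMI of each of Cd3e, Cd8a and Cd8b1, no UMI of Cd4, Foxp3 or Ncr1, fewer than 3 UMIs of the cell cycle genes Mki67 and Top2a together, fewer than 5 of the interferon-induced genes Ifit1, Ifit3 and Rsad2 together, and at least 20 of Gzmd, Gzme and Gzmg together. The other 2102 barcodes that met every condition but the last are called the remaining CD8 cells. Members numbered 16 in library Ac, 11 in C, 38 in aC+C and 14 in IgG, and the remaining cells numbered 687, 362, 493 and 560 in the same libraries.

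Each group of the study was 1 library, and the labels spell out none of the group names, agents or doses. The sample titles describe immune cells that infiltrated tumors and the series title names CD8+ T cells, whereas other fields and the extraction text speak of goblet cells (mucus producers of the intestine) taken by their mCherry signal from RedMUC298trTg mice. All 4 groups share these labels, and an age of 6 to 8 weeks stands in their genotype field. Members held no UMI of Muc2 or Krt8, 2 of the 4 listed markers of goblet and epithelial cells. CPM are UMIs scaled by the total UMIs of the same cells. All 4 markers together had 3.32, 0, 5.75 and 0 CPM in members of Ac, C, aC+C and IgG. The remaining CD8 cells of these libraries had 2.62, 7.74, 6.83 and 5.97 CPM. The members' median UMIs per cell were 9 of Cd3e, 13 of Cd8a and 12 of Cd8b1. Libraries had 61519049 to 75665201 UMIs, and any pair of them shared 2 to 7 kept barcodes. The median member had 17812 UMIs in Ac, 11698 in C, 18302 in aC+C and 14364 in IgG, against 9368, 9892, 10294 and 10926 UMIs in the remaining cells of these libraries, and a minimum in absolute UMIs favours deep cells.

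Granzymes are serine proteases that killer lymphocytes store in granules with perforin, the protein that opens a path for them into a target cell. Granzyme A and granzyme B are the ones most studied. The mouse has in addition a block of closely related genes, granzymes C to G, beside granzyme B, which are known from strongly stimulated killer cells in culture and from lymphocytes of the pregnant uterus. Killer cells also make serpins, protease inhibitors that protect them from their own granzymes.

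The granzyme genes in question lie close together on the minus strand of chromosome 14, with Gzmn (chr14:56165797-56174599) between Gzmg and Gzmf. In GENCODE M21 (GRCm38, the same assembly as mm10), Gzme spans chr14:56117626-56120625, Gzmd chr14:56129556-56132608, Gzmg chr14:56156582-56159579, Gzmf chr14:56205263-56211417, Gzmc chr14:56231441-56234656 and Gzmb chr14:56258838-56262260. The stretches of 160 bases before the annotated starts of the 3 genes that chose the members, and of Gzmf and Gzmc, which did not, are shown because the 5 genes were high in the same cells. They come from RefSeq (GRCm38.p6), whose starts of Gzmd and Gzmf lie inside the GENCODE spans given above, and are read 5′ to 3′ on the strand of the gene. Capitals mark the cyclic AMP response element palindrome TGACGTCA, the core TGTGGT of RUNX sites and the TATA-like letters TTTAAAA.
Gzmd, chr14:56132594-56132753: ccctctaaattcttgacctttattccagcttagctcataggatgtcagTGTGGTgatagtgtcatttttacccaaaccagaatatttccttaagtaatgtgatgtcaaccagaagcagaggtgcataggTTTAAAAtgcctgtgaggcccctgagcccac
Gzme, chr14:56120626-56120785: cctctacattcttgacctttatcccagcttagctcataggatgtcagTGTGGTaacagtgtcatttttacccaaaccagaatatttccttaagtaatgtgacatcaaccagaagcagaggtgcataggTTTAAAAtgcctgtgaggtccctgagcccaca
Gzmg, chr14:56159580-56159739: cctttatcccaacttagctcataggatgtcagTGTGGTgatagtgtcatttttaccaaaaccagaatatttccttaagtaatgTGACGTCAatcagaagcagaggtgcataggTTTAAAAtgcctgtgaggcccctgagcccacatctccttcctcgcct
Gzmf, chr14:56211408-56211567: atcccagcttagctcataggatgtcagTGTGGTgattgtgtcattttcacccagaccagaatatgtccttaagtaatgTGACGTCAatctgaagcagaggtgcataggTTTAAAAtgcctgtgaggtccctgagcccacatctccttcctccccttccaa
Gzmc, chr14:56234658-56234817: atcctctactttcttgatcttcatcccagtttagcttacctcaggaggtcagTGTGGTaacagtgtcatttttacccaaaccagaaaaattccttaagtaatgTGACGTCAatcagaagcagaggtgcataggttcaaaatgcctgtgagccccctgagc

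Over the 250 bases before the start, searched on both strands, all 5 genes had TGTGGT, which 14.05% of 32851 RefSeq promoter windows of that length had. TGACGTCA was found for Gzmc, Gzmf and Gzmg and in 1.55% of all windows. TTTAAAA was found for Gzmd, Gzme, Gzmg and Gzmf and in 8.10% of all windows. The 3 motifs did not overlap each other in the stretches shown, and a match of letters is a description only. Over the 250 bases, Gzmd and Gzme were 94.8% identical, Gzmg and Gzmf 82.7%, and the pairs between these at most 79.4%, while Gzmc was 71.5% to 81.8% identical to the 4. The transcripts are alike as well, which bears on the counts. Over the last 300 bases, where reads of a 3′ assay start from, the transcripts of Gzmd, Gzme, Gzmg and Gzmf were 82.4% to 88.2% identical, with shared runs of 49 to 72 bases, so how reads were split among these 4 genes is uncertain. Gzmn was 81.6% to 90.0% identical to these 4 there, with shared runs of 41 to 88 bases, so its counts are uncertain as well. Gzmc was 48.8% to 53.7% identical to them there, with no shared run over 10 bases.

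The share of granzyme-high cells was highest in aC+C. Members made up 2.28% of non-cycling CD8 T cells in Ac (95% Clopper-Pearson interval 1.31 to 3.67), 2.95% in C (1.48 to 5.22), 7.16% in aC+C (5.11 to 9.69) and 2.44% in IgG (1.34 to 4.06). The share in aC+C was 2.93 times that in IgG (1.55 to 5.86), 3.14 times that in Ac (1.71 to 6.04) and 2.43 times that in C (1.22 to 5.26). The ratio to IgG was 0.933 for Ac (0.427 to 2.06) and 1.21 for C (0.497 to 2.87), and both intervals include 1. With 1 library per group there was no spread between replicates and no test, and all intervals cover counting error only. A threshold scaled to depth, of at least 1 granzyme UMI per 1000 UMIs, gave 2.56% in Ac, 3.75% in C, 8.47% in aC+C and 3.31% in IgG, and aC+C was highest under each of the other thresholds and filters that were run.

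Cycling CD8 T cells had the same library on top. Of cycling CD8 T cells, 6.72% in Ac (3.96 to 10.5), 5.59% in C (2.71 to 10.0), 12.4% in aC+C (8.72 to 16.8) and 6.34% in IgG (3.799 to 9.83) had at least 20 UMIs of these granzymes. Among non-cycling natural killer (NK) cells, defined here by Ncr1 without Cd3e, Cd8b1 and Cd4, the shares were 19.6% in Ac, 21.9% in C, 19.9% in aC+C and 29.4% in IgG. In cycling NK cells the share was 61.5% in aC+C (16 of 26 cells, 40.6 to 79.8), 42.9% in Ac (28.8 to 57.8), 30.3% in C (21.5 to 40.4) and 45.6% in IgG (33.5 to 58.1). The interval of aC+C overlapped those of Ac and IgG. Members were thus 9.46% of the 835 granzyme-high barcodes, and NK cells, cycling or not, were 53.9%. In barcodes rich in macrophage markers, with at least 20 UMIs of them, 1 of 3617 had 20 granzyme UMIs. At least 1 granzyme UMI was found in 15.04% of non-cycling CD8 T cells (13.6 to 16.6, median 10195 UMIs per cell). In these macrophage-marker barcodes the share was 7.24% (6.42 to 8.14, median 10808 UMIs). The part of free RNA in such low counts was not tested.

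**Figure D1:**
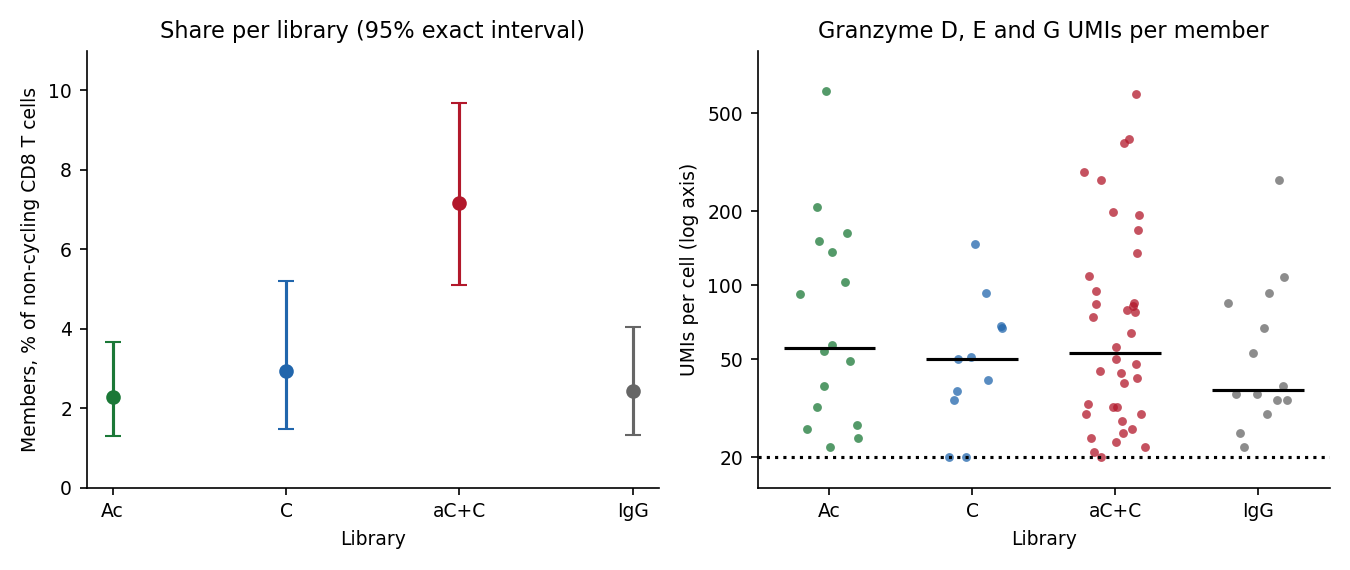
Left, the members' share of non-cycling CD8 T cells in percent per library, with exact 95% binomial intervals; right, the summed UMIs of Gzmd, Gzme and Gzmg in each member on a log axis, with the median as a bar and the minimum of 20 as a dotted line. The share was 7.16% in aC+C and between 2.28% and 2.95% in Ac, C and IgG, while the medians lay between 37.5 and 55.5 UMIs.

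The values that chose the members are given as a description. Their summed UMIs of Gzmd, Gzme and Gzmg had a median of 55.5 in Ac (22 to 615), 50 in C (20 to 147), 53 in aC+C (20 to 598) and 37.5 in IgG (22 to 269). Gzmd had the most UMIs of the 3 genes in 43 members and Gzme in the other 36. Gzmg led in none and had a UMI in 36. Of Gzmd, members of Ac, C, aC+C and IgG held 3341, 2326, 3332 and 1760.4 CPM (the gene's UMIs scaled by the total UMIs of the same cells), against 10.3, 28.3, 26.2 and 20.8 CPM in the remaining cells. Gzmg differed most between libraries, with 749.8 CPM in members of Ac, 110.1 in C, 349 in aC+C and 52.2 in IgG, and 1 member held 31.2% of all member UMIs of Gzmg. Around the minimum, 10 members had 20 to 24 UMIs and 15 remaining cells had 15 to 19. Those just inside had 4322 CPM of Gzmf and 1489 of Gzmc, and those just outside had 5389 and 1482 CPM, so the threshold does not fall at a gap in these neighbouring genes.

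Gzmf and Gzmc, the neighbours that the rule did not use, had the largest rises among the called genes of at least 50 CPM in either set, out of 8849 genes tested. UMIs were summed over members and over remaining cells in each library and compared with edgeR's quasi-likelihood test, with the library as a term and Benjamini-Hochberg adjustment over all genes. At an adjusted p of at most 0.05, 107 genes were higher in members (1.21% of those tested) and 202 were lower (2.28%). These counts were 37 and 55 without aC+C, 63 and 122 without Ac, and 167 and 334 without IgG, and 66 and 68 against remaining cells of like depth. In 223 genes (2.52%) all 4 member values lay above all 4 values of the remaining cells, and in 678 (7.66%) below them. The rule chose members by close relatives of Gzmf and Gzmc in the same cells, so these calls are not independent of it. Gzmf reached 13822 CPM in members of Ac, 12541 in C, 10211 in aC+C and 6149 in IgG, against 280.0, 722, 659.9 and 543 CPM in the remaining cells. The groups did not overlap, and the fold was 20.4 (log2 4.35 ± 0.23 SE, adjusted p = 6.05e-10). Gzmc held 3494, 1813, 2439 and 1278 CPM in members of these libraries, against 49.6, 105, 166 and 114 CPM in the remaining cells, a fold of 21.7 (log2 4.44 ± 0.29, adjusted p = 9.08e-09). Barcodes of at most 50 UMIs, which hold mostly free RNA, had 365 to 879 CPM of Gzmf and 699 to 1735 CPM of Gzmc, and the part of free RNA in the remaining cells' level was not tested.

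Not every granzyme was higher. Gzmb, which encodes granzyme B, the main caspase-activating granzyme, was high in both sets, at 3268 CPM in members of Ac, 2392 in C, 3631 in aC+C and 1491 in IgG, against 1535, 1054, 1874 and 1289 CPM in the remaining cells. It rose 1.91-fold (log2 0.93 ± 0.13, adjusted p = 0.000147), and the member value of IgG lay inside the range of the remaining cells. Gzma and Gzmk, which lie on chromosome 13 and encode tryptase-like granzymes, were lower, unlike Gzmf, Gzmc and Gzmb. Gzma had 46.5, 7.34, 4.31 and 20.1 CPM in members of Ac, C, aC+C and IgG, against 149, 120.0, 156 and 90.5 CPM in the remaining cells, and fell by 2.90 on the log2 scale (SE 0.33, adjusted p = 2.65e-05). Of its 23 member UMIs 1 cell held 60.9%. Gzmk fell by 1.54 (SE 0.24, adjusted p = 0.000625). Against remaining cells of like depth both missed the threshold, Gzma at log2 -1.72 (adjusted p = 0.0599) and Gzmk at adjusted p = 0.0506. These 5 genes, 3 higher and 2 lower, were the ones tested of 7 granzyme genes listed outside the rule. The others, Gzmm and Gzmn, had no UMI in members. For Gzmn this may depend on how reads were split among it and its close relatives, which is uncertain.

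**Figure D2:**
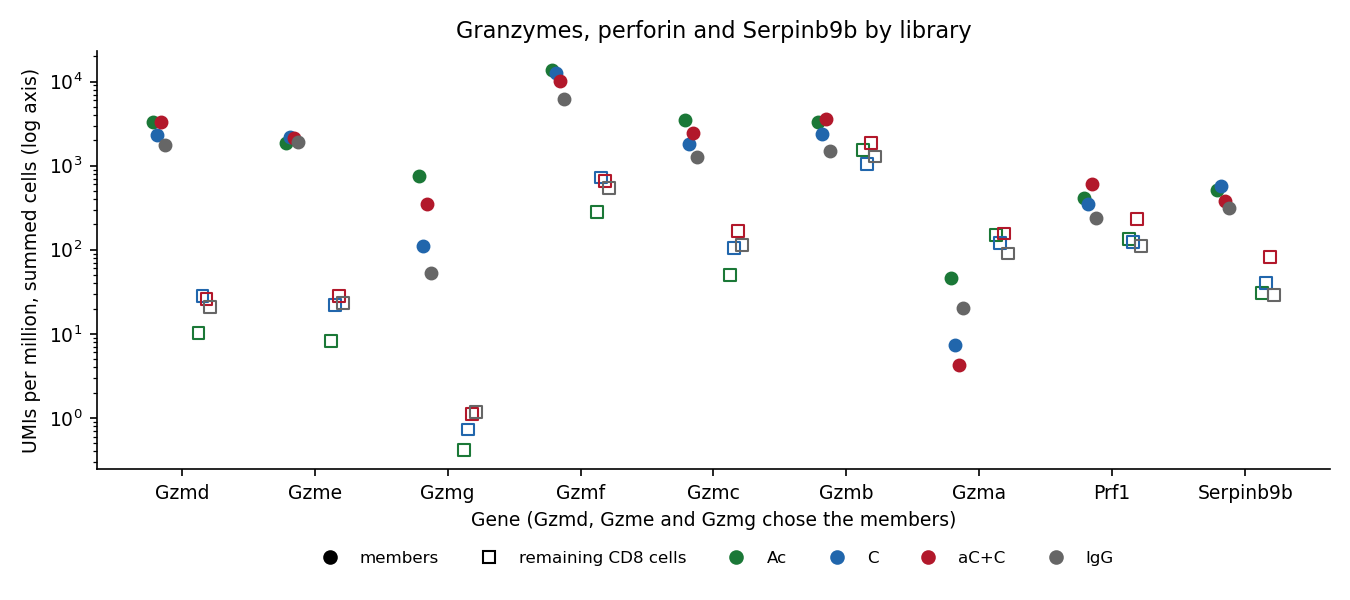
CPM over summed cells on a log axis for 9 genes, with filled circles for members and open squares for the remaining CD8 cells, coloured by library. Gzmd, Gzme and Gzmg chose the members; Gzmf and Gzmc stand 20.4 and 21.7 times higher in members, Gzmb 1.91 times, and Gzma lower in each library.

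The perforin gene rose, and most genes of cytotoxic machinery did not pass the test. Of 18 genes of cytotoxic machinery tested, 5 were higher and none lower, with a median log2 change of 0.06, against -0.02 over all genes tested. Prf1, the perforin gene, had 408, 352, 607 and 241 CPM in members of Ac, C, aC+C and IgG, against 133, 122, 231 and 111 CPM in the remaining cells, and rose 2.81-fold (log2 1.49 ± 0.12, adjusted p = 2.03e-07). All 4 member values lay above every value of the remaining cells. Ctla2a and Ctla2b, which encode inhibitors of cysteine proteases, rose by 0.85 and 0.71 on the log2 scale. Cst7, which encodes cystatin F, an inhibitor of the proteases that activate granzymes, rose by 0.50, and Ctsd, the lysosomal protease cathepsin D, by 0.40. Nkg7, a granule membrane gene, had 2407 to 3170 CPM in members and 2285 to 3347 CPM in remaining cells and did not pass the test (adjusted p = 0.525), but was called higher against remaining cells of like depth (adjusted p = 0.00348).

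Some serpins rose as well, led by Serpinb9b, 1 of the 4 marker genes given for these cells. Serpinb9b, a relative of the granzyme B inhibitor Serpinb9, lies on chromosome 13 at chr13:33027416-33041884 and was not used by the rule. It had 518, 579.7, 383 and 313 CPM in members of Ac, C, aC+C and IgG, against 30.9, 40.4, 82.7 and 29.0 CPM in the remaining cells, and rose 10.4-fold (log2 3.38 ± 0.21, adjusted p = 8.14e-09). It had a UMI in 55 of 79 members. Markers were chosen with earlier results of these data known, so the tests of Serpinb9b here and below are not independent of that choice. Of 7 tested genes of the list of granzyme-inhibiting serpins, 4 were higher and none lower. Without macrophage-marker cells 3 of 7 were higher and Serpina3g was lower, and at like depth without such cells 2 of 5 were higher. The other higher ones were Serpinb6a (log2 1.14 ± 0.12, adjusted p = 1.42e-05), Serpinb6b (0.57) and Serpinb9 (0.48 ± 0.13, adjusted p = 0.0404). The calls of Serpinb9 (log2 0.40, adjusted p = 0.113) and Serpinb6b (adjusted p = 0.0978) were lost when remaining cells of like depth were used, and in Ac the member-to-remaining ratio was 1.005 for Serpinb9 and 0.911 for Serpinb6b. Serpine2, which encodes a secreted inhibitor of thrombin-like proteases, had 129, 117, 102 and 28.1 CPM in members, against 21.9, 27.6, 32.9 and 17.9 CPM in remaining cells (log2 1.93 ± 0.24, adjusted p = 6.39e-05); the member value of IgG was within the range of the remaining cells.

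Among secreted factors, Spp1 rose and Ccl5 and Xcl1 fell. Of 21 cytokine and chemokine genes tested, 2 were higher and 4 lower. Spp1, which encodes the secreted phosphoprotein osteopontin, had 873, 1416, 1468 and 828 CPM in members of Ac, C, aC+C and IgG, against 119, 410.5, 211 and 244 CPM in the remaining cells, and rose 5.24-fold (log2 2.39 ± 0.17, adjusted p = 2.85e-08). Barcodes of at most 50 UMIs had 755 to 1364 CPM of Spp1. Ifng, the interferon gamma gene, rose 1.92-fold (adjusted p = 0.00112), but had 234 CPM in members of aC+C against 224 CPM in remaining cells of that library, and 1 member held 21.1% of its UMIs. Ccl5, a chemokine that draws T cells and myeloid cells, had 936, 418, 177 and 502 CPM in members, against 3577, 1737, 2502 and 2495 CPM in remaining cells, and fell by 2.47 on the log2 scale (SE 0.20, adjusted p = 2.02e-07). Xcl1, a chemokine that attracts type 1 dendritic cells, had 3 UMIs in all members, against 2293 UMIs in the remaining cells, a ratio of CPM of 0.0224 (exact interval 0.00462 to 0.0656). Tnfsf8, the gene of CD30 ligand, had no UMI in members and 276 in remaining cells, at least 5.37-fold lower against a floor of 3 counts over the members. Ccl4, the other gene called lower (log2 -0.75, adjusted p = 0.0474), lost its call in 11 of 16 alternatives, with DESeq2 (adjusted p = 0.638) among them, and was not lower in Ac (ratio 1.095).

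Receptors and other genes followed among the 15 highest. Il1r2, the decoy receptor of interleukin-1, had 106, 147, 114 and 121 CPM in members of Ac, C, aC+C and IgG, against 26.9, 32.2, 35.6 and 41.7 CPM in the remaining cells, a 3.66-fold rise (log2 1.87 ± 0.18, adjusted p = 2.14e-06) with a narrow range in each set. Fcrl6, an Fc receptor-like surface protein, had 56.4, 58.7, 47.5 and 48.2 CPM in members against 15.6 to 18.8 CPM in remaining cells, and rose 3.15-fold. Ifitm2, an interferon-induced membrane protein, rose 2.26-fold, with 500.4 to 748 CPM in members and 246 to 334 CPM in remaining cells. Myo10, an unconventional myosin of cell protrusions, rose 3.12-fold. Gng11, a G protein gamma subunit, rose 5.41-fold, with 19.9 CPM in members of Ac and 183 CPM in those of C, and 1 member held 23.8% of its UMIs. Mt1, a metal-binding metallothionein, rose 2.56-fold and Mt2 3.36-fold, the 2 of 4 metallothioneins tested that were called. Mt1 was 4.19 times the remaining cells' level in Ac, 1.29 in C (0.850 to 1.88), 2.60 in aC+C and 1.83 in IgG. Of the member UMIs of Mt1, 1 cell held 19.4%. Mt2 was 7.53 times the remaining cells' level in Ac, 1.38 in C, 3.22 in aC+C and 0.967 in IgG. AA467197 rose 2.12-fold and Gldc, the glycine decarboxylase gene, 2.03-fold. Against remaining cells of like depth AA467197 was at log2 0.90 (adjusted p = 0.0506) and Gldc at 0.61 (adjusted p = 0.207), and without macrophage-marker cells as well AA467197 was called (log2 1.49, adjusted p = 1.97e-06).

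**Figure D3:**
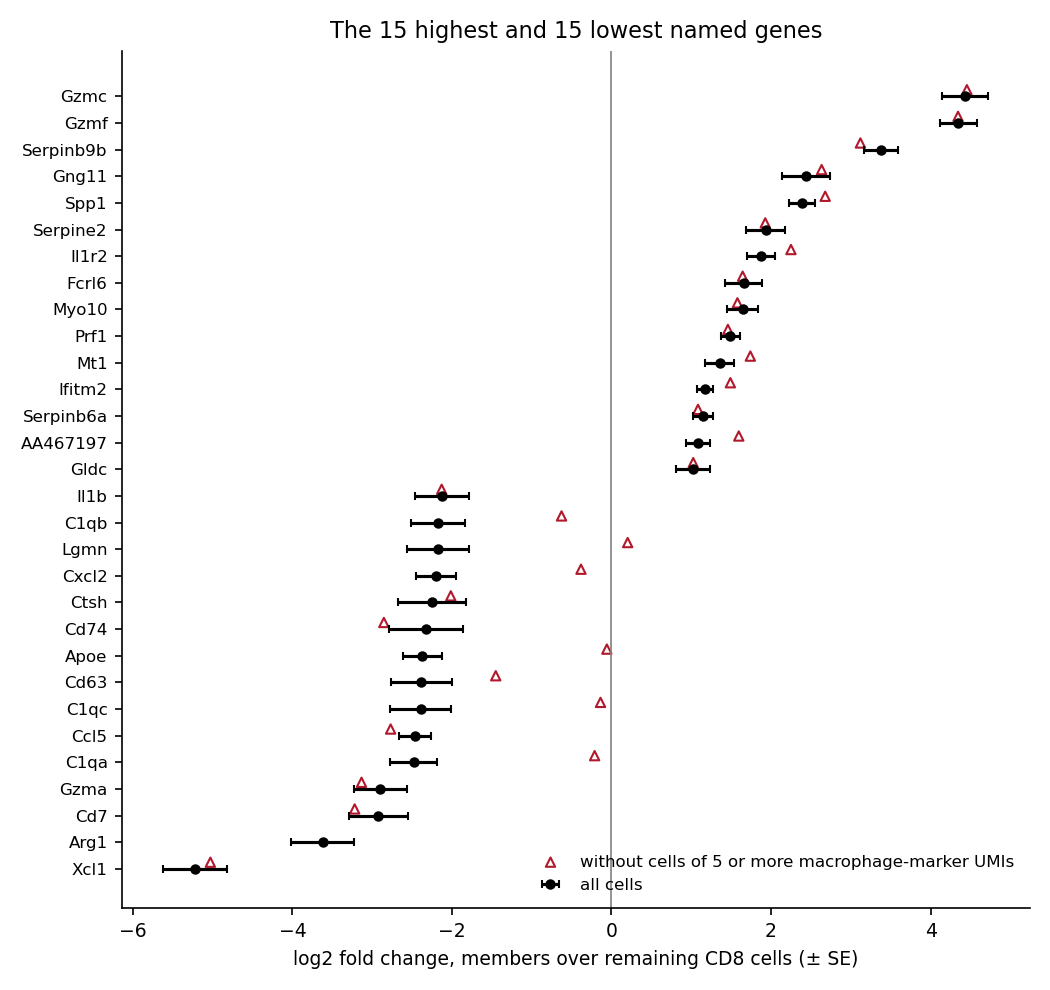
Log2 fold change of members over the remaining CD8 cells for the 15 highest and 15 lowest named genes, with standard errors (black circles) and without cells of 5 or more macrophage-marker UMIs (red triangles; Arg1 was not tested there). Gzmc and Gzmf stand highest at 4.44 and 4.35, and C1qa, C1qb, C1qc, Apoe, Cxcl2 and Lgmn move to between -0.63 and 0.20 when those cells are left out.

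Of the 15 lowest genes, most are genes of macrophages. C1qa, C1qb and C1qc, which encode complement C1q, Apoe, which encodes a lipid carrier, Cxcl2, Lgmn, Cd63, Ctsh, Il1b and Arg1 fell by between 2.12 and 3.62 on the log2 scale. The list of 10 macrophage markers summed to 166, 183, 129 and 1162 CPM in members of Ac, C, aC+C and IgG, against 1069, 4029, 877 and 1667 CPM in the remaining cells, and none of the 10 was at 0 in members. At least 5 UMIs of the 7 macrophage markers used for counting were found in 4 of 79 members (5.06%), 3 in Ac and 1 in IgG, and in 128 of 2102 remaining cells (6.09%). Without these cells, none of 7 tested markers of the list was called, and C1qa, C1qb, C1qc, Apoe, Cxcl2 and Lgmn lost their calls, at log2 changes between -0.63 and 0.20. Ctsh (log2 -2.01) and Cd63 (-1.45) lost their calls as well while still lower, and Cd63 was called against cells of like depth without macrophage-marker cells (log2 -2.25, adjusted p = 0.0330). Xcl1, Cd7, Gzma, Ccl5, Cd74 and Il1b kept theirs. The member of IgG with most macrophage UMIs had 213 of them among 42678 UMIs and was marked as a doublet. It held 89.7% of the member UMIs of Cd74, the invariant chain of MHC class II, which had 36.5, 29.4, 23.01 and 1431 CPM in members, against 585, 1714, 274 and 1459 CPM in remaining cells. Of 7 MHC class II genes tested 5 were lower, and 4 of 6 were without the cells of 5 or more macrophage-marker UMIs.

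Genes of naive, memory and stem-like T cells were lower. Of 19 tested, none was higher and 10 were lower (median log2 -1.08, against -0.02 over all genes). Bcl2, a survival gene, had 156, 103, 139 and 145 CPM in members of Ac, C, aC+C and IgG, against 381, 302, 232 and 280.3 CPM in the remaining cells, and fell by 0.98 on the log2 scale (SE 0.14, adjusted p = 0.000310). The groups did not overlap, but the call was lost against remaining cells of like depth (adjusted p = 0.234). Cd7, a surface protein of T and NK cells, had 3.32, 0, 7.19 and 12.1 CPM in members, against 71.2, 41.8, 46.9 and 50.1 CPM in remaining cells. Tcf7, the transcription factor of stem-like T cells, had 3 UMIs in members and 606 in remaining cells, a CPM ratio of 0.0848 (0.0174 to 0.249). Slamf6 had 2 UMIs in members and 413 in remaining cells (ratio 0.0830, 0.0100 to 0.302). Dapl1 had no UMI in members and 272 in remaining cells, at least 5.29-fold lower. Without macrophage-marker cells 10 of 19 were lower. Against remaining cells of like depth without such cells, 1 of the 11 that could be tested was lower.

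Immediate early genes, which switch on within minutes of a stimulus and also during tissue dissociation, were lower too. Of 16 tested, 10 were lower and none higher (median log2 -0.73). In IgG the member-to-remaining ratio was 1.07 for Fos (0.850 to 1.34), 1.002 for Fosb (0.806 to 1.23) and 0.904 for Jun (0.630 to 1.26). In Ac, C and aC+C it was 0.495, 0.259 and 0.290 for Fos, and 0.648, 0.433 and 0.506 for Fosb. For Jun it was 0.702, 0.588 and 0.296, and Jun lost its call in 11 of 16 alternatives. Zfp36l1, an RNA-decay factor, had 46.5, 80.7, 25.9 and 133 CPM in members of Ac, C, aC+C and IgG, against 128, 190.1, 107 and 215 CPM in remaining cells (log2 -1.26 ± 0.18, adjusted p = 0.000374). Dusp1, a phosphatase of MAP kinases, fell by 1.18 (SE 0.16, adjusted p = 0.000157), with 51.8 to 213 CPM in members and 193 to 363 CPM in remaining cells. Against remaining cells of like depth without macrophage-marker cells, 3 of 15 were lower, and Dusp1 was not (adjusted p = 0.0829). Depth, macrophage RNA and the gene set move together here, and their part in the result was not tested beyond these counts.

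Few receptors of chronic stimulation passed the test. Of 19 inhibitory receptors and ectoenzymes tested, Havcr2, the gene of TIM-3, was higher (129 to 176 CPM in members, 80.3 to 107 CPM in remaining cells, log2 0.78 ± 0.15, adjusted p = 0.00350) and Lilr4b lower. Pdcd1, the gene of PD-1, had 488, 294, 411 and 414 CPM in members of Ac, C, aC+C and IgG, against 394, 228, 390.5 and 316 CPM in remaining cells, and did not pass (log2 0.34 ± 0.11, adjusted p = 0.108), but did against remaining cells of like depth (adjusted p = 0.0304). Lag3 (log2 0.30 ± 0.13, adjusted p = 0.325) and Tox (-0.29 ± 0.16, adjusted p = 0.456) did not pass either. Of 28 transcription factors of effector and exhausted T cells, 2 were higher and 1 was lower. Irf8 had 969, 815, 1004 and 779.7 CPM in members, against 333, 532, 548 and 548 CPM in remaining cells, and rose 1.95-fold (adjusted p = 0.000319). Epas1, which encodes the hypoxia-inducible factor HIF-2α, rose 3.64-fold (29.4 to 72.3 CPM in members, 6.05 to 16.3 CPM in remaining cells, adjusted p = 0.000599), with adjusted p = 0.0647 against cells of like depth. Maf was the lower one, at 5 UMIs in members, and lost its call without macrophage-marker cells (adjusted p = 0.0849).

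Smaller changes were seen in secretory and metabolic genes. Of 30 genes of endoplasmic reticulum chaperones and the unfolded protein response, 6 were higher (Calr, Ssr2, Pdia6, Manf, Pdia3 and Hsp90b1) and 1, Ddit3, was lower. Calr, the chaperone calreticulin, led the 6 with a log2 change of 0.54 (SE 0.11, adjusted p = 0.00477), at 617, 616, 791 and 687 CPM in members of Ac, C, aC+C and IgG, against 438, 497, 488 and 537 CPM in remaining cells. Of these 30, 27 could be tested against remaining cells of like depth without macrophage-marker cells, and 1 was higher. Of 20 glycolysis genes, Slc2a3, a glucose transporter, Ldha and Tpi1 were higher (log2 0.95, 0.46 and 0.44) and none was lower, and the calls of Ldha and Tpi1 were lost against cells of like depth (adjusted p = 0.418 and 0.442). Of 55 genes of oxidative phosphorylation, Ndufa4 was lower and none higher. No gene passed among 82 cytosolic ribosomal protein genes, 13 mitochondrially encoded genes, 30 proteasome genes, 25 of sterol and fatty acid synthesis and 23 of S phase, with edgeR's test and adjusted p of at most 0.05. Of 22 genes of G2 and M phase, Cenpa was higher, in cells that the rule had limited to fewer than 3 UMIs of Mki67 and Top2a. Against remaining cells of like depth without macrophage-marker cells, 2 of 18 S phase genes were lower. Of 11 genes of G2 and M phase testable there, none was higher and 1 was lower.

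Of 27 type I interferon-stimulated genes tested, 6 were lower and none higher (median log2 -0.59), in sets that the rule had both limited in Ifit1, Ifit3 and Rsad2. Ifi27l2a had 182, 829, 305 and 619 CPM in members of Ac, C, aC+C and IgG, against 1461, 1219, 1529.8 and 1782 CPM in the remaining cells (log2 -1.77 ± 0.22, adjusted p = 6.39e-05). Against cells of like depth without macrophage-marker cells, 1 of 14 was lower. Of 26 genes of the interferon gamma response and MHC class I, 5 were lower, and none of 23 in that comparison. Of 19 genes of tissue residency and trafficking, Cxcr3, Cxcr4 and Itgb7 were lower. Tnfrsf9, the activation receptor 4-1BB, was higher among 21 costimulatory genes (log2 0.55) and Cd2 was lower, neither of them against cells of like depth (adjusted p = 0.109 and 0.296). Of 23 IL-2 receptor and STAT5-linked genes, 4 were lower (Socs2, Gadd45b, Pim1 and Socs1). Klrk1 and Fcgr3, an Fc receptor that macrophages also make, were lower among 16 NK receptor genes, and none of the 9 testable at like depth without macrophage-marker cells was called. Of 24 genes of T cell receptor signalling, Cd3g was higher (log2 0.41) and Egr1, Sla and Dusp5 were lower, but none of the 3 against cells of like depth (adjusted p = 0.0773, 0.0684 and 0.323). Smad7 and Tgfbi were lower and Lgals1, which encodes galectin-1, was higher (log2 0.46) among 14 genes of the TGF-beta response. Bcl2 and Bcl2l11 were lower among 20 apoptosis regulators and Ndrg1 was higher among 17 hypoxia genes, calls that were lost against cells of like depth (adjusted p = 0.234, 0.0719 and 0.480). Hspa1a, at 1 UMI in members, was lower among 12 heat shock genes.

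**Figure D4:**
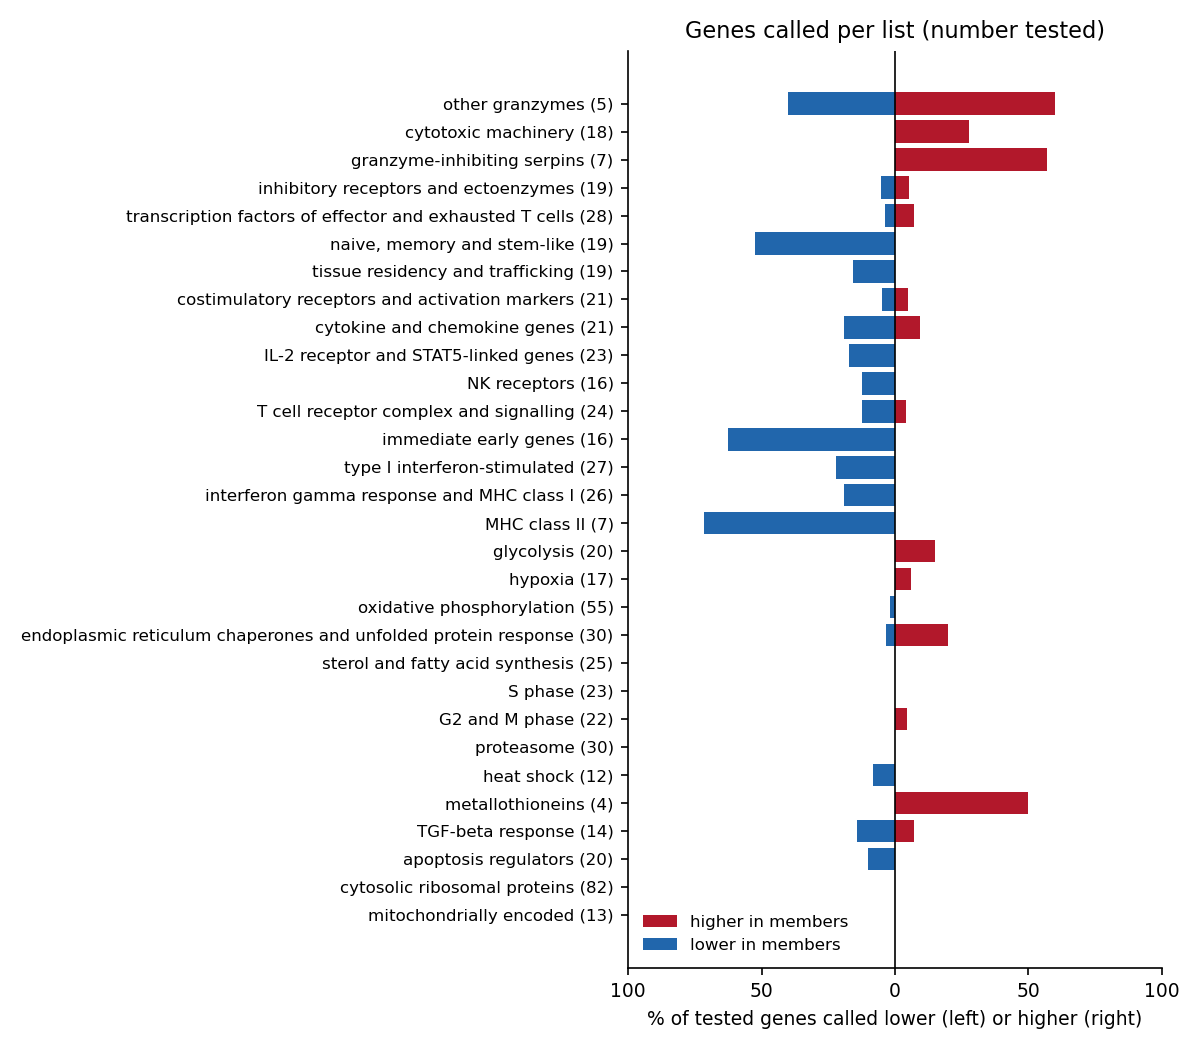
Percent of the tested genes of each list called higher (red, right) or lower (blue, left) in members, with the number tested in brackets. The background over all genes was 1.21% higher and 2.28% lower. Serpins, cytotoxic machinery and glycolysis have red bars only; naive and stem-like genes, immediate early genes and MHC class II have blue bars only.

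Of 5 NK markers, Ncr1, which the rule fixed, Klra8 and Klra4 were at 0, as were the CD4 lineage marker Cd40lg and 3 of 4 markers of B cells. With Eomes and Klrb1c, the 5 NK markers summed to 66.4, 0, 43.1 and 32.2 CPM in members of Ac, C, aC+C and IgG. In remaining cells the sums were 55.5, 42.8, 37.3 and 44.6 CPM. Eomes, which made up most of these sums, did not pass the test (adjusted p = 0.93). Markers of fibroblasts summed to 0, 7.34, 12.9 and 8.04 CPM in members of Ac, C, aC+C and IgG, against 6.06, 115, 66.5 and 181 CPM in remaining cells, and both tested ones, Col3a1 and Dcn, were lower. T cell receptor constant genes were not analysed here. One member of aC+C had 1 UMI each of Cd3e, Cd8a and Cd8b1 with 53 of Tyrobp and 74 of Fcer1g, signalling adaptors typical of NK and myeloid cells, and 267 granzyme UMIs. Fcer1g itself was unevenly spread. It had at least 10 UMIs in 23 of 79 members (29.1%) and in 321 of 2102 remaining cells (15.3%), at unequal depth, and 0 in 34 members. At the level of summed cells it had 819.5, 462, 467 and 539 CPM in members of Ac, C, aC+C and IgG, against 244, 819, 325 and 528 CPM in remaining cells, and did not pass the test (adjusted p = 0.372), but was higher without cells of 5 or more macrophage-marker UMIs (log2 0.95, adjusted p = 0.0160).

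Within the members, Gzmf and Prf1 were higher in cells with a higher granzyme sum, a description in bins of the values that chose them. The 10 members with 20 to 24 granzyme UMIs had 4322 CPM of Gzmf, those with 25 to 39 had 5510, those with 40 to 99 had 10614 and the 19 with 100 to 615 had 16219. Prf1 took 247, 317, 428 and 718 CPM in the same order, and Serpinb9b 276, 198, 389 and 671 CPM. Gzmb, with 3559, 2703, 3245 and 2909 CPM, showed no such order. The median UMIs per cell were 13602, 15112, 16794 and 20232, so depth rose along these bins too.

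The members had more Gzmf relative to Gzmc than granzyme-high NK cells had, as did granzyme-high cycling CD8 T cells. The sets share the minimum of 20 granzyme UMIs but not the levels above it: Gzmd had 1760.4 to 3341 CPM in members and 6201 to 8125 CPM in NK cells, and Gzmg 52.2 to 749.8 and 796 to 3355 CPM. The UMI ratio of Gzmf to Gzmc was 3.96 in members of Ac (exact interval 3.70 to 4.24), 6.92 in C (6.05 to 7.94), 4.19 in aC+C (3.97 to 4.42) and 4.81 in IgG (4.26 to 5.45). These intervals treat UMIs as independent and leave out the spread between cells. In aC+C the member with 53 Tyrobp UMIs held 411 of 1696 Gzmc UMIs, and in Ac 1 member held 362 of 1053. In 352 granzyme-high non-cycling NK cells the ratio was 0.426 in Ac, 0.343 in C, 0.889 in aC+C and 0.337 in IgG, lower in every library. In 79 granzyme-high cycling CD8 T cells it was 4.16 in Ac, above the members' value there, 2.40 in C, 2.74 in aC+C and 3.37 in IgG. Remaining CD8 cells of these libraries too had more Gzmf, at 280.0, 722, 659.9 and 543 CPM in the same order. Their Gzmc was at 49.6, 105, 166 and 114 CPM, so more Gzmf than Gzmc was not particular to granzyme-high CD8 cells. Gzmf exceeded Gzmc in 71 of 79 members, in 59 of 79 cycling CD8 T cells and in 54 of the 352 NK cells. Gzmf was at 0 in 2 members and in 176 of the NK cells, whereas Gzmc had at most 1 UMI in 15 members and in 2 of the NK cells. The medians were 123 UMIs of Gzmf and 15 of Gzmc in members, against 0.5 and 241.5 in the NK cells, at 17095 and 17626 UMIs per cell.

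**Figure D5:**
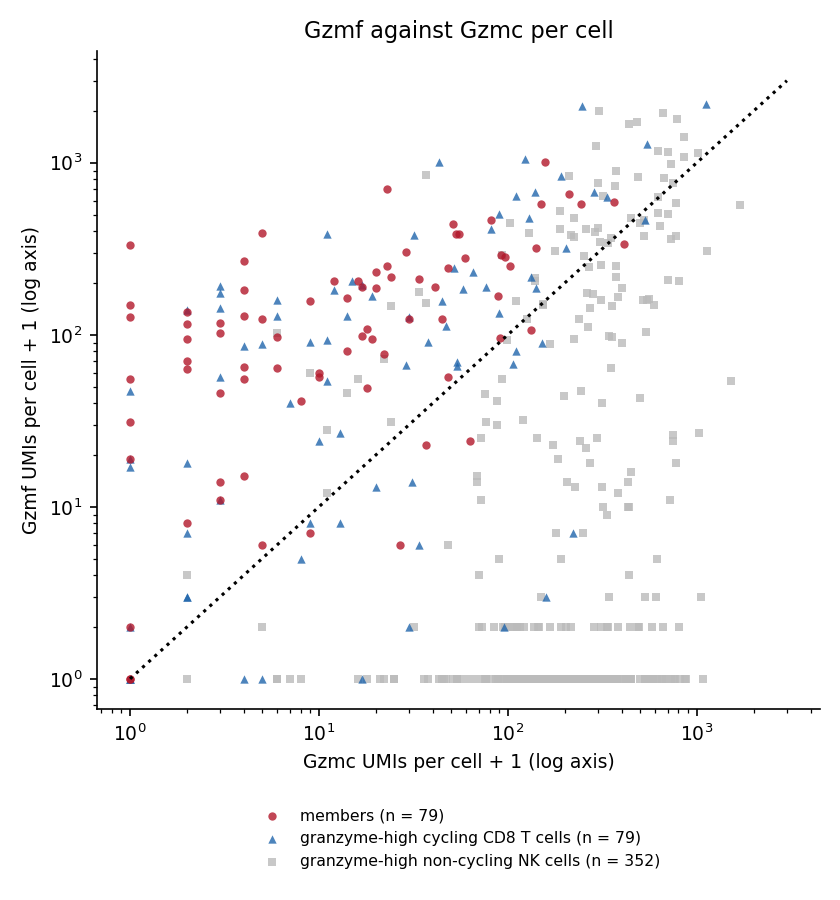
UMIs of Gzmf against Gzmc per cell, each plus 1 and on log axes, for 79 members, 79 granzyme-high cycling CD8 T cells and 352 granzyme-high non-cycling NK cells; the dotted line marks equal values. Members lie mostly above the line (71 of 79) and NK cells mostly below it (54 of 352 above).

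Against those NK cells, 414 of 5873 genes tested were higher in members (7.05%) and 509 were lower (8.67%), by the same edgeR test with the library as a term. Gzmc was lower in members, at 3494, 1813, 2439 and 1278 CPM in Ac, C, aC+C and IgG against 16049, 15758, 13982 and 15716 CPM in NK cells (log2 -3.02 ± 0.18, adjusted p = 3.47e-09). Gzmf, Gzmb and Prf1 did not pass (log2 0.36, -0.16 and -0.00, adjusted p = 0.202, 0.611 and 0.995). Gzma was lower in members, at 4.31 to 46.5 CPM in members and 1958 to 3076 CPM in NK cells. Serpinb9b was 9.15-fold higher in members, with 313 to 579.7 CPM against 24.2 to 71.1 CPM in NK cells (adjusted p = 4.41e-09), and Ifng was 12.2-fold higher. Spp1 was lower in members, at 828 to 1468 CPM against 2886 to 3260 CPM in NK cells (log2 -1.62 ± 0.14, adjusted p = 2.95e-07). Irf8 and Ctla2a, which were higher in members than in remaining CD8 cells, were lower in members than in NK cells (log2 -0.57 and -1.20). Cd3g, Pdcd1, Tox and Havcr2 were 13.4-fold to 55.5-fold higher in members, and Tyrobp was lower (log2 -5.19); the NK cells had been chosen without Cd3e.

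Against 79 granzyme-high cycling CD8 T cells, 239 of 4568 genes were higher in members (5.23%) and 390 were lower (8.54%). The cycling cells were chosen by Mki67 and Top2a and had a median of 30060 UMIs. Gzmf was higher in members (log2 0.73 ± 0.19, adjusted p = 0.0120), with 13822, 12541, 10211 and 6149 CPM in members of Ac, C, aC+C and IgG, against 5341, 5182, 8312 and 7734 CPM in cycling cells, so that IgG went the other way. Gzmc, Gzmb, Prf1, Spp1 and Serpinb9b did not pass (adjusted p = 0.892, 0.844, 0.345, 0.564 and 0.0525). Ctla2a was higher by 1.14 on the log2 scale, Il1r2 by 1.26, Ifitm2 by 1.05 and Lag3 by 0.85. Ctla2a had 976 to 1459 CPM in members and 508 to 620.5 CPM in cycling cells. The members' comparisons with remaining, cycling and NK cells all use the same members, so they are not independent of each other.

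No expression difference between libraries within the members was computed, since this needed 50 members in each of 2 libraries and the largest set was 38.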

How the data were processed

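For each of 4 libraries, 1 per group, the deposited matrix gives whole UMI counts that the authors did not normalize, as checked on the values. The deposited lists of genes and barcodes (other: names) give their rows and columns. Cell Ranger 2.1.1 and mm10 are named, per the submitters' processing notes, whereas the matrix headers name software 3.0.2; the labels' protocols name the 3′ kit v2. How reads shared by genes were assigned is not stated in these sources. UMIs remove amplification copies, but free RNA is counted with the cell.

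Barcodes were filtered and chosen by the stated rule. UMIs were summed per library over members and over remaining cells (10 or more members per library) and compared with edgeR 4.0.16 in R 4.3.3 (quasi-likelihood, TMM, filterByExpr, library as a term). The 14 genes of the rule were not tested. SE are from the fit. The 4 libraries differ in group and are not stated to come from separate animals, so p-values measure only the spread between these libraries. On simulated counts with 4-fold changes, 98% of raised and 68.9% of lowered genes were recovered, and with 2-fold changes 44% and 25%. Doublets were kept; an alternative removed the highest scores of Scrublet in scanpy 1.11.5. Other alternatives were DESeq2 1.42.0, other filters, thresholds and sets of remaining cells. Members, lists and markers were chosen with earlier results of these data known. Named genes were the 15 highest and 15 lowest by log2 fold change among called genes at 50 CPM or more with 1 direction in every library, list members in order of size, and genes of the rule. Uncalled genes given for contrast, and the comparisons with NK and cycling cells, were chosen after the data were seen. Intervals are exact at 95% and cover counting error only. Promoter windows and motifs were read with Biopython 1.88 from RefSeq tables.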

Additional observations from a re-analysis of the deposited data

How the results depend on the processing

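The share of members was highest in aC+C under all 9 alternatives. With at least 10 granzyme UMIs it was 2.70% in Ac, 5.36% in C, 9.04% in aC+C and 4.36% in IgG, and with at least 40 it was 1.42%, 1.88%, 4.71% and 1.05%. The number of genes called, 107 higher and 202 lower, depended on the fit. It was 83 and 104 with DESeq2, 136 and 348 without a filter on low counts, 58 and 72 without the library term, 178 and 275 with a threshold of 10 UMIs, 164 and 291 with doublets removed, and 66 and 68 against remaining cells of like depth, where fewer genes could be tested. Against cells of like depth without macrophage-marker cells, an alternative chosen after the data were seen, it was 56 and 34. Leaving out 1 library at a time gave 37 to 167 higher and 55 to 334 lower genes; the lowest came without aC+C and the highest without IgG, and the cause was not tested. The 15 highest genes kept their direction in all 16 alternatives and their call too, except Gng11 and AA467197, called in 15, and Gldc, called in 13. Sign changes were looked for in the 15 highest genes, the 15 lowest and the called genes of the lists, not in uncalled genes. These changed sign, none of them then past the threshold: without cells of 5 or more macrophage-marker UMIs, Cd14 (0.79), Lgmn (0.20) and Tgfbi (0.48), and, with cells of like depth also, Lyz2 (0.23). Over all genes, 177 of the 182 lower genes still tested without macrophage-marker cells kept their direction, as did 106 of 107 higher genes with DESeq2 and without IgG. No paired analysis was possible because each group was 1 library, as far as differences between groups go; members and remaining cells were compared within libraries by the library term. The alternatives for differences between libraries within members gave no value, since no library had 50 members. On simulated counts of this depth, 44% of 2-fold rises and 25% of 2-fold falls were recovered.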

Other observations

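Mcpt8, which encodes a protease of basophils and lies beside this granzyme block at chr14:56082166-56085273 (GRCm38), was counted in the members at a low level and was among the marker genes listed for mast cells and basophils. It had 2 UMIs in members of Ac, 1 in C, 15 in aC+C and 0 in IgG, in 14 of 79 cells, with at most 3 UMIs in a cell. The remaining CD8 cells had 0, 4, 0 and 3 UMIs in the same libraries, in 7 of 2102 cells, so that members of aC+C held 15 of the 18 member UMIs and IgG had UMIs in remaining cells only. Granzyme-high cycling CD8 T cells had 50 UMIs in 17 of 79 cells and granzyme-high NK cells 34 UMIs in 26 of 352. The other basophil and mast cell markers Cpa3, Ms4a2 and Fcer1a were at 0 in members. The gene was chosen after its values were seen and was too low for the test.

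Kit, the stem cell factor receptor, also chosen after its values were seen, had 39.8, 66.0, 23.01 and 32.2 CPM in members of Ac, C, aC+C and IgG, against 7.72, 16.2, 8.49 and 12.4 CPM in the remaining cells, and was higher in members in all 4 libraries (log2 1.85 ± 0.32, adjusted p = 0.00150 with edgeR). It did not pass between members and granzyme-high NK cells (adjusted p = 0.200) or cycling CD8 T cells (adjusted p = 0.187).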
